A study of Mus musculus with 8 samples.

Results

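The voltage-gated sodium, calcium and potassium channel genes were followed in embryonic mouse forebrain and spinal cord. They were picked by gene symbol, with earlier results of these data known. The symbols took in the sodium channel alpha and beta subunits (Scn) and the calcium channel alpha1, alpha2delta, beta and gamma subunits (Cacna1, Cacna2d, Cacnb, Cacng). They also took in the potassium channel families Kv1, Kv2, Kv3, Kv4 and Kv7 (Kcna, Kcnb, Kcnc, Kcnd, Kcnq). Of 36333 rows in the table, 61 matched, of which 13 were sodium, 26 calcium and 22 potassium channel genes. The symbol Scn2a1 is written differently and was not taken up. A pore-forming alpha subunit opens when the membrane depolarizes and lets a single kind of ion pass. Sodium channels start the action potential, calcium channels couple it to transmitter release and to signalling in the cell, and potassium channels end it and set the firing rate. Auxiliary subunits carry the pore to the membrane and tune its opening. In the embryonic nervous system these genes come on as neurons leave the cell cycle and mature.

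Transcripts were measured by bulk RNA sequencing of total RNA, with 2 libraries in each of 4 groups. The groups were E15.5 forebrain of EED-cKO embryos, wild-type (wt) E15.5 forebrain, wt E13.5 spinal cord and wt E13.5 forebrain. EED belongs to the Polycomb complex PRC2, which deposits the repressive histone mark H3K27me3 and is known to hold silent many developmental genes. Eed was deleted with Sox1-Cre, which acts in the neuroectoderm, and the dissected tissue also holds blood and immune cells from outside that lineage. Which vessel and meningeal cells lost Eed was not measured. The labels give neither the strain, the floxed part of Eed, the alleles of the wt embryos, nor whether replicates were separate embryos, and the p-values here reflect the spread among libraries alone, which may be technical. Eed was at 10.0 and 10.6 RPKM (reads per kilobase of transcript, scaled to mapped reads) in EED-cKO forebrain, against 25.8 and 27.9 RPKM in wt E15.5 forebrain. It fell by 1.30 on the log2 scale (SE 0.085, limma adjusted p = 8.65e-05). Neurod6, a cortical neuron gene, was at 349.5 and 399.3 RPKM in wt E15.5 forebrain, and the motor neuron factor Isl2 was at 25 and 15.7 RPKM in wt E13.5 spinal cord.

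The values are RPKM in steps of 0.1 with no counts beside them, and sequencing depth is therefore unknown. They summed to 761647 to 843296 per E15.5 library and to 378294 to 397320 per E13.5 library, and the ages were not compared. The E15.5 columns were matched to the gene names in alphabetical order. This reassigned 20 of the 61 members, namely Kcna2 to Kcna10 and every Scn gene, while 41 kept their row. Each change is a difference of log2(RPKM + 1), given with its standard error (SE), a scale that understates the fold of genes near 0. A gene rose or fell where limma gave a Benjamini-Hochberg adjusted p below 0.05 over all 17022 tested genes. Genes at 1 RPKM or more in at least 2 of 8 libraries were tested, which held for 52 members. The other 9 were Cacna1f, Cacna1s, Cacna2d4, Cacng6, Kcna7, Kcna10, Scn4a, Scn4b and Scn11a, none of which exceeded 0.8 RPKM in any library. Scn10a and Scn7a passed only through the spinal cord libraries, and Kcnq1 and Cacng1 would not have passed without the EED-cKO libraries. An exact permutation test of 2 libraries against 2 cannot go below p = 0.333 (two-sided), so the calls rest on the spread that limma shares across genes and groups.

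In EED-cKO forebrain more channel genes rose than fell. Of 52 tested members, 24 rose (46.2%) and 2 fell (3.85%) against wt E15.5 forebrain, while among all tested genes 30.2% rose and 16.7% fell. The median change was 0.35 for the members and 0.08 for all genes on the log2 scale. By channel type, 9 of 20 potassium, 10 of 22 calcium and 5 of 10 sodium channel genes rose. Kcnq1 is among them, but would not have passed the filter without the EED-cKO libraries. That holds for 910 of all 17022 tested genes. The changes were moderate in size, with 4 members above 1 on the log2 scale, a size that 6.59% of all genes reached upward. Among these 4 were Kcnc4, Cacna2d2 and Cacna1g.

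**Figure D1:**
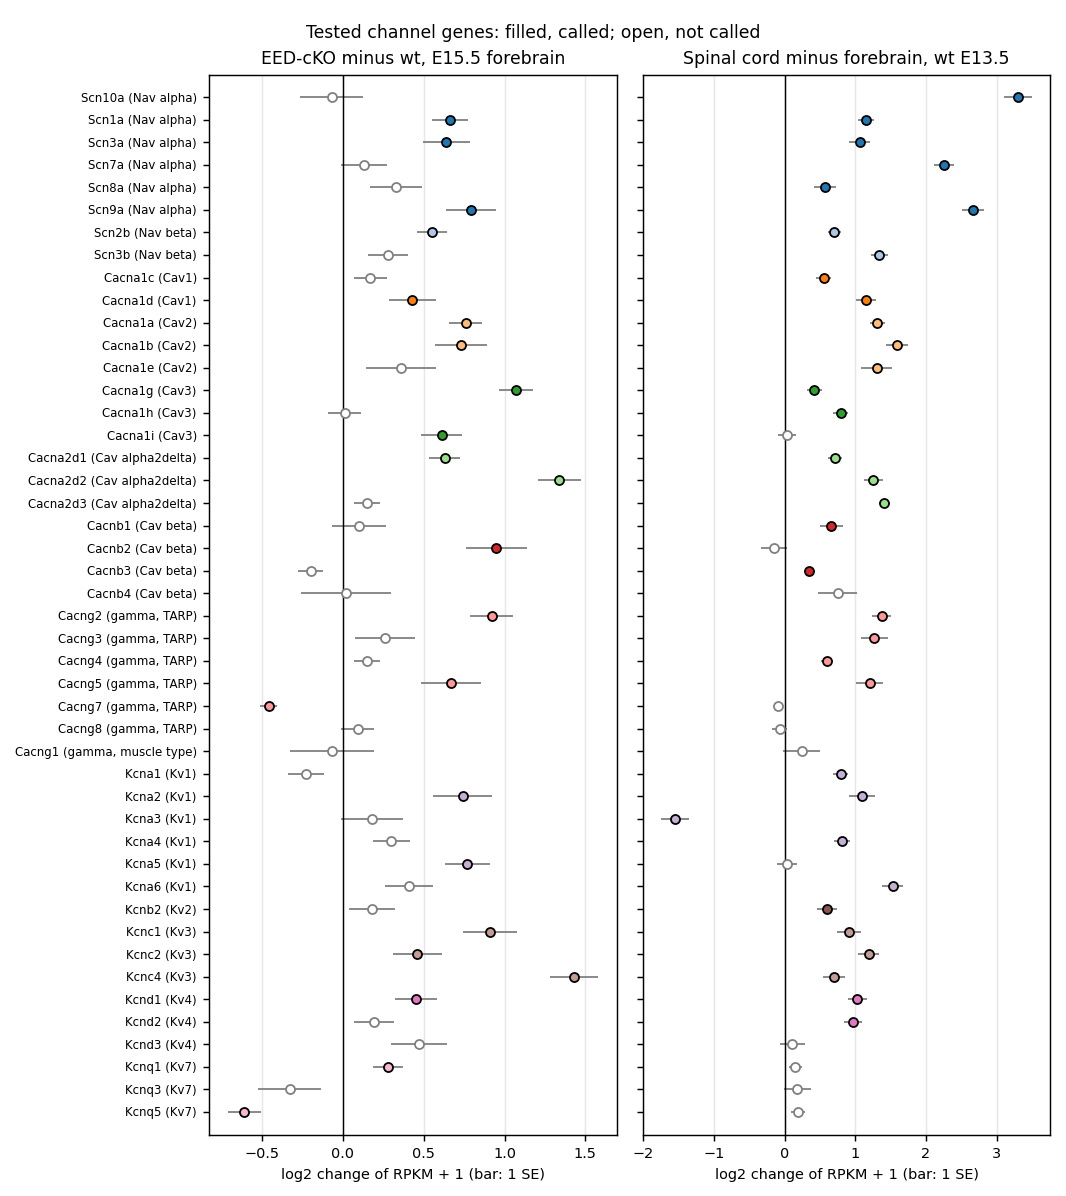
Change of 46 tested channel genes on the log2(RPKM + 1) scale, in EED-cKO against wt E15.5 forebrain (left) and in wt E13.5 spinal cord against forebrain (right); bars show 1 SE of the limma estimate, filled points a change past the threshold, and colours the channel family. On the left 21 points are filled above 0 and 2 below, and on the right 34 are filled above 0 and Kcna3 alone below.

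Kcnc4, Kcnc1 and Kcnc2 of the Kv3 family rose in EED-cKO forebrain. Kv3 channels open at strongly depolarized voltages and close fast, which lets neurons fire at high rates. Kcnc4 was at 23.0 and 25.5 RPKM in EED-cKO forebrain, against 9.4 and 7.4 RPKM in wt. It had the largest rise of all tested members (log2 1.43 ± 0.15 SE, limma adjusted p = 0.00047). Kcnc1 was at 20.3 and 20.7 RPKM in EED-cKO, against 12.5 and 8.7 RPKM in wt (log2 0.91 ± 0.17 SE, limma adjusted p = 0.00418). For Kcnc4 and Kcnc1 both EED-cKO libraries lay above both wt libraries. Kcnc2 rose less (log2 0.46 ± 0.15 SE, limma adjusted p = 0.0422), and it kept its call when 1 of the 8 libraries was left out in only 1 of the 8 cases.

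The promoters of Kcnc4 and Kcnc1, which lie on different chromosomes, are shown beside that of Cacna2d2, the calcium channel gene with the largest rise, because PRC2 is known to bind CG-rich promoters in mammals and these windows differ in their number of CG dinucleotides. Each run holds 250 bases before and 50 bases after the gene's start in RefSeq (GRCm38.p6), on the gene's strand, with every CG in capitals. In GENCODE M21 Kcnc4 begins farther upstream, at 107459552, and Cacna2d2 at 107399612. Their windows thus lie inside these gene models and need not hold the promoter in use. CG reads the same on both strands. The windows are chr3:107458849-107459148, minus strand, for Kcnc4, chr7:46396218-46396517, plus strand, for Kcnc1, and chr9:107399630-107399929, plus strand, for Cacna2d2.
Kcnc4: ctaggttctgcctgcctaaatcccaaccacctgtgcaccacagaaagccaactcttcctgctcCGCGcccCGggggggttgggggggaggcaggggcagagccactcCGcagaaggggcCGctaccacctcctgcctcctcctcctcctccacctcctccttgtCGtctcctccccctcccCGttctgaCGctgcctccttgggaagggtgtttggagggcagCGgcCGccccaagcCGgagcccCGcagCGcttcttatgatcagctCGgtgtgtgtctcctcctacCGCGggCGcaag
Kcnc1: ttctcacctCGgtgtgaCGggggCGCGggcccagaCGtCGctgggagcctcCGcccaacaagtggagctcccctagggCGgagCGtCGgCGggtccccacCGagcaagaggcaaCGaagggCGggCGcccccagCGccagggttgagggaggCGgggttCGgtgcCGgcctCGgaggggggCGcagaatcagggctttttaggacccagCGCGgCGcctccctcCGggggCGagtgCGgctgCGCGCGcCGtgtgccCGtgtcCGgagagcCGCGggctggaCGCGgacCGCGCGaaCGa
Cacna2d2: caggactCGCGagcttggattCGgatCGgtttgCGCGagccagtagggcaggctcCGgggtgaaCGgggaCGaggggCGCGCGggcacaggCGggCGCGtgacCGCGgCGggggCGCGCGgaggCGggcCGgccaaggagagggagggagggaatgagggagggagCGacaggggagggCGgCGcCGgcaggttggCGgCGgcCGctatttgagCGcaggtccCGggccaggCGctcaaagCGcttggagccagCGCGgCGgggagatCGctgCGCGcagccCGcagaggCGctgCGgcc
They hold 17, 41 and 43 CG, and windows of this length with at least as many make up 31.4%, 3.46% and 2.61% of 32851 mouse promoters. This promoter set held 42 of the 61 members. Where it held several promoters for a member, the first listed was used, while all promoters enter the background. Kcnq5 has 2 listed and Kcnc2 has 4, so such counts and the medians below depend on that choice. The 16 members that rose had a median of 18.5 CG and the 16 tested members that were not called a median of 15.5 CG, while the 2 that fell, Cacng7 and Kcnq5, had 15 and 3. The 8 members too low to test had a median of 4.5 CG and all promoters a median of 7.0 CG. These counts describe the sequence, and PRC2 binding was not measured.

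The other potassium channel families were mixed. In the Kv2 family, which makes the slow delayed rectifier of neuronal cell bodies, Kcnb2 was not called (log2 0.18, limma adjusted p = 0.35). In the Kv1 family 2 of 6 tested genes rose. Kcna5 rose by 0.77 ± 0.14 and Kcna2 by 0.74 ± 0.18, and the call of Kcna2 was lost without EED-cKO replicate 2. Kcna6, the most abundant Kv1 gene, was at 18.0 and 18.8 RPKM in EED-cKO and 15.5 and 11.9 RPKM in wt (limma adjusted p = 0.0592). In the Kv4 family, which carries the transient A-type current of dendrites, Kcnd1 rose by 0.45 ± 0.13, a call that was lost in 3 of the 8 fits that left out a library and in 4 of 6 other settings, with 0.06 (limma adjusted p = 0.674) after quantile normalization. The abundant Kv4 gene Kcnd2, at 20.1 and 22.2 RPKM in EED-cKO and 21 and 16.1 RPKM in wt, overlapped between genotypes (limma adjusted p = 0.249).

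The Kv7 family, which makes the M-current that holds neurons below threshold, had the only potassium channel gene among the members that fell. Kcnq5 was at 1.9 and 2.2 RPKM in EED-cKO, against 4.0 and 3.3 RPKM in wt, and it fell by 0.61 on the log2 scale (SE 0.10, limma adjusted p = 0.003). The low-level gene Kcnq1, known from heart and ear, rose by 0.28 ± 0.091, but this turned to -0.04 after quantile normalization (limma adjusted p = 0.748). Its antisense transcript Kcnq1ot1 overlaps its exons, and unstranded reads cannot separate the pair. Kcnq3, with a change of -0.33, was not called (limma adjusted p = 0.203), and it fell after quantile normalization.

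Among the calcium channel pores, genes of the P/Q, N and T types rose. Cacna1g, a T-type pore that opens near rest and drives bursts, was at 3.6 RPKM in both EED-cKO libraries, against 1.4 and 1.0 RPKM in wt (log2 1.07 ± 0.11 SE, limma adjusted p = 0.000388). The T-type gene Cacna1i rose by 0.61 ± 0.13, a call lost without EED-cKO replicate 2. Cacna1h, the most abundant T-type gene, was at 27.9 and 26.3 RPKM in EED-cKO and 29.8 and 24.1 RPKM in wt, with overlapping groups (log2 0.01 ± 0.10 SE, limma adjusted p = 0.929). Cacna1g thus made up 9.73% and 9.97% of the summed T-type level in EED-cKO and 3.99% and 3.55% in wt. Of the presynaptic pores, Cacna1a (P/Q type) rose by 0.76 ± 0.10, and Cacna1b (N type) was at 24.2 and 26.0 RPKM in EED-cKO, against 17.7 and 12.2 RPKM in wt (log2 0.73 ± 0.16 SE, limma adjusted p = 0.00913). The call of Cacna1b was lost without EED-cKO replicate 2 (limma adjusted p = 0.0766). Cacna1e, the R-type pore, was not called (log2 0.36, limma adjusted p = 0.211). The L-type gene Cacna1d, at 6.4 and 7.6 RPKM in EED-cKO and 5.7 and 4.2 RPKM in wt, rose by 0.43 ± 0.14, and it kept its call in only 1 of the 8 fits that left out a library.

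Of the 3 tested alpha2delta subunits, which bring calcium channels to the membrane, 2 rose. Cacna2d2 was at 55.0 and 53.0 RPKM in EED-cKO, against 24.4 and 17.5 RPKM in wt (log2 1.34 ± 0.13 SE, limma adjusted p = 0.000378). Cacna2d1 was at 43.2 and 44.6 RPKM in EED-cKO, against 30.6 and 25.7 RPKM in wt (log2 0.63 ± 0.095 SE, limma adjusted p = 0.00192). With Cacna2d3 not called (log2 0.15, limma adjusted p = 0.176), Cacna2d2 made up 44.2% and 43.1% of the summed alpha2delta level in EED-cKO and 31.0% and 26.7% in wt. Of the 4 beta subunits, which bind the pore inside the cell, Cacnb2 rose (log2 0.95 ± 0.19 SE, limma adjusted p = 0.0061). Leaving out EED-cKO replicate 2 took its limma adjusted p to 0.0556. The dominant beta gene Cacnb3 was at 172.9 and 157.4 RPKM in EED-cKO and 193.6 and 185.6 RPKM in wt, without overlap but short of the threshold (log2 -0.20 ± 0.076 SE, limma adjusted p = 0.0685).

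Most of the gamma genes code for transmembrane AMPA receptor regulatory proteins (TARPs), which serve glutamate receptors more than calcium channels, and these went both ways. Cacng2, which codes for stargazin, rose and was at 28.1 and 28.7 RPKM in EED-cKO, against 16.8 and 12.6 RPKM in wt (log2 0.92 ± 0.14 SE, limma adjusted p = 0.00175). Cacng7 was at 90.7 and 93.0 RPKM in EED-cKO, against 128.6 and 124.8 RPKM in wt, and it fell by 0.46 on the log2 scale (SE 0.052, limma adjusted p = 0.000626). Cacng5 rose by 0.67 ± 0.19, with its call lost without EED-cKO replicate 1 and without replicate 2. Cacng4, the most abundant TARP gene, was at 151.3 and 147.9 RPKM in EED-cKO and 144.2 and 125.8 RPKM in wt (limma adjusted p = 0.164). The 6 TARP genes summed to 322.5 and 324.4 RPKM in EED-cKO and 341.0 and 303.7 RPKM in wt, so the family total overlapped while its members moved in opposite directions.

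The 5 sodium channel genes that rose did so by less than 1 on the log2 scale. Scn3a, the alpha subunit of embryonic brain and the most abundant one here, was at 35.2 and 33.8 RPKM in EED-cKO, against 25.8 and 18.3 RPKM in wt (log2 0.64 ± 0.15 SE, limma adjusted p = 0.0102). Scn9a, best known from pain-sensing neurons, was at 3.7 and 3.6 RPKM in EED-cKO, against 2.0 and 1.4 RPKM in wt (log2 0.79 ± 0.16 SE, limma adjusted p = 0.00563). Scn1a, the alpha subunit of inhibitory neurons mutated in Dravet syndrome, rose by 0.66 ± 0.11. Scn9a and Scn1a kept their calls without each library in turn, and Scn3a did not. Scn3a held 63.5% and 60.9% of the summed alpha level in EED-cKO, against 62.3% and 62.5% in wt, so the ranges overlapped. Among the beta subunits, Scn2b rose by 0.55 ± 0.091, while the abundant Scn3b, at 85.1 and 89.6 RPKM in EED-cKO and 78.7 and 65.1 RPKM in wt, was not called (limma adjusted p = 0.0986). All Scn genes are among the members whose E15.5 row was reassigned, and under the deposited order Scn1a was at -0.07 (limma adjusted p = 0.472).

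**Figure D2:**
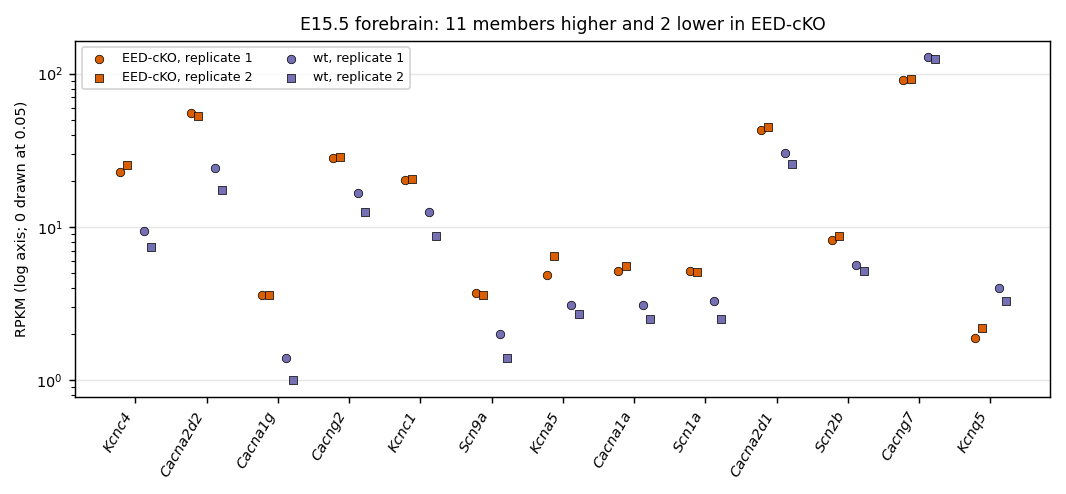
RPKM (log axis) in each E15.5 forebrain library of 11 channel genes that rose and the 2 that fell in EED-cKO with every library left out in turn and under 6 other settings; circles are replicate 1 and squares replicate 2, EED-cKO left of wt. For all 13 genes drawn the EED-cKO and wt libraries do not overlap, which holds for 70.3% of all tested genes. The genes were picked by their calls, so the lack of overlap follows largely from that choice. In each of them wt replicate 1 lies above wt replicate 2.

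The 2 wt E15.5 libraries differed in channel level. Replicate 1 was above replicate 2 for 49 of the 52 tested members (94.2%, median difference 0.29 on the log2 scale), against 52.5% of all tested genes (0.03). Without wt replicate 1, 34 members rose (35.6% of all genes), and without wt replicate 2, 19 rose and 4 fell (26.2% and 15.9% of all genes). Without EED-cKO replicate 1, 17 rose (22.8% of all genes), and without EED-cKO replicate 2, 13 rose (20.2% of all genes), while Cacng7 and Kcnq5 fell in each of these fits. Among these 13 were Cacna1a, Cacna1g, Cacna2d1, Cacna2d2, Cacng2, Kcna5, Kcnc1, Kcnc4, Scn1a, Scn2b and Scn9a, and all 13 kept their calls without each library and in 6 other settings of the test (a pseudocount of 0.1, no filter on low values, quantile normalization, median ratio scaling, only the 4 libraries compared, and a replicate block). The other 11 that rose lost the call in at least 1 of these. Scaling moved the counts as well. After quantile normalization 16 members rose and 5 fell (20.8% and 25.3% of all genes), with a median of 0.10 against -0.05 for all genes. After median ratio scaling 20 rose and 4 fell (23.8% and 24.9% of all genes), and with only the 4 E15.5 libraries in the fit 15 rose and 2 fell (19.9% and 8.13% of all genes).

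Markers of several cell types moved in the same comparison, in which 30.2% of all tested genes rose and 16.7% fell. All 10 cortical glutamatergic genes fell, with Neurod6 at 14.6 and 12.8 RPKM in EED-cKO, and of 8 GABAergic genes 4 fell and 2 rose. Of 15 general neuronal genes 5 rose and 2 fell (median 0.19), with the synaptic gene Snap25 at 208.7 and 196.2 RPKM in EED-cKO, against 127.7 and 115.9 RPKM in wt, and summed levels of 5569.6 to 5732.9 RPKM in EED-cKO and 6359.0 to 6364.3 RPKM in wt. The shares of general neuronal genes that rose and fell were close to those of all genes. Genes of mesenchyme (7 of 7), of the vessel wall (10 of 11) and of macrophages and microglia (5 of 7) rose. Of the vessel wall genes, 1 would not have passed the filter without the EED-cKO libraries. Of 6 motor neuron and cholinergic genes 4 rose and none fell, with the motor neuron factor Mnx1 at 6.3 and 5.2 RPKM in EED-cKO and listed at 0 in both wt libraries, and their summed level was 60 and 48.6 RPKM in EED-cKO, against 34.2 and 29.2 RPKM in wt. Of 8 progenitor genes 3 fell and 2 rose, and the cell cycle genes Top2a (log2 -0.80 ± 0.12) and Ccna2 (log2 -1.07 ± 0.085) were among those that fell. Of 8 glial genes 3 rose and 2 fell, of 10 sensory ganglion genes 3 rose and 2 fell, and of 7 red blood cell genes 1 rose and 1 fell. In bulk tissue a change in the number of cells of a type and a change in RNA per cell cannot be told apart, and the part of these shifts in the channel changes was not tested. Skeletal muscle genes stood high in a single library, with summed levels of 14.4 RPKM in EED-cKO replicate 1 and 208.4 RPKM in replicate 2, against 11.3 and 15.1 RPKM in wt. The muscle-type gamma gene Cacng1 was at 0.4 and 1.4 RPKM in EED-cKO and 1.3 and 0.6 RPKM in wt, and Cacng6 at 0.1 and 0.7 RPKM in EED-cKO and 0.1 and 0 RPKM in wt. The muscle sodium channel Scn4a was listed at 0 in all 8 libraries.

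Lists of channel partners are given beside the 30.2% of all tested genes that rose and the 16.7% that fell in EED-cKO forebrain. Of 13 tested potassium channel partners 7 rose and none fell, among them Kcnip1, a subunit of Kv4 channels, at 71.2 and 69.8 RPKM in EED-cKO, against 39.3 and 35.7 RPKM in wt (log2 0.89 ± 0.083). Dpp6, another Kv4 partner, rose by 0.83 ± 0.12. The largest rise among these partners was that of Kcne2, at 40.7 and 31.5 RPKM in EED-cKO, against 12.6 and 14.7 RPKM in wt (log2 1.33 ± 0.15). Of 15 sodium channel partners and leak channel genes 8 rose and 1 fell. Nalcn, the sodium leak channel, rose by 1.01 ± 0.13 and Cntnap1, of the axonal node region, by 1.58 ± 0.17. Cntn2, an axonal adhesion molecule of projection neurons, fell to 19.7 and 18.9 RPKM in EED-cKO, against 80.5 and 72.5 RPKM in wt. Of 16 calcium channel partners 7 rose and none fell, including Ryr2, a calcium release channel (0.92 ± 0.17), and Rimbp2, of the presynaptic active zone (0.65 ± 0.12). Of the 7 silent Kv subunits, which act only with Kv2 pores, 4 rose and 2 fell. Kcng2 rose by 1.34 ± 0.18, while Kcnv1 and Kcng1 fell by 1.29 and 1.13. Of 41 other potassium and HCN channel genes 17 rose and 4 fell, led by the leak channel Kcnk9 (log2 1.73 ± 0.18). Without the EED-cKO libraries 1 potassium channel partner, 1 silent Kv subunit and 3 of these 41 would not have passed the filter.

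In wt E13.5 embryos most channel genes were higher in spinal cord than in forebrain. Of 52 tested members, 39 were higher (75.0%) and 1 was lower (1.92%), while among all tested genes 21.8% were higher and 23.9% lower. The median change was 0.79 for the members and 0.00 for all genes. A difference of at least 1 on the log2 scale was reached upward by 21 members, against 5.32% of all genes, and downward by Kcna3 alone, against 4.41%. By type, 9 of 10 sodium, 16 of 22 calcium and 14 of 20 potassium channel genes were higher. Scn10a and Scn7a are among them, but would not have passed the filter without the spinal cord libraries. That holds for 249 of all 17022 tested genes. The counts stayed at 39 and 1 after quantile normalization (23.3% and 25.7% of all genes) and after median ratio scaling (23.1% and 25% of all genes), and 32 of the 39 kept their calls without each library and in the 6 other settings. The exceptions were Cacna1c, Cacna1g, Cacnb1, Cacnb3, Kcnb2, Kcnc4 and Scn8a.

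The largest differences were those of 3 sodium channel genes, Scn10a, Scn9a and Scn7a. Scn10a, the channel of nociceptors that resists tetrodotoxin, was at 12.7 and 7.6 RPKM in spinal cord and at 0.1 RPKM in both forebrain libraries (log2 3.30 ± 0.20 SE). Scn9a was at 17.6 and 13.4 RPKM in spinal cord, against 1.7 and 1.5 RPKM in forebrain (log2 2.66 ± 0.16 SE, limma adjusted p = 2.36e-05). Scn7a, an atypical sodium channel that senses sodium, was at 4.5 and 3.1 RPKM in spinal cord and listed at 0 in both forebrain libraries. Scn10a and Scn7a passed the filter only through the spinal cord libraries, so their direction was fixed by it and no p-value is given for them. All 3 genes were higher in spinal cord replicate 1 than in replicate 2. Of 10 tested sensory ganglion markers 9 were higher in spinal cord too, beside 21.8% of all tested genes. Their summed level was 405.9 and 305.5 RPKM in spinal cord and 16.6 and 14.3 RPKM in forebrain. Avil and Trpv1 are among the 9, but they also passed the filter only through the spinal cord libraries, which fixed their direction. Prph was at 202.4 and 158.3 RPKM in spinal cord and 2.8 and 1.8 RPKM in forebrain, Avil at 14.4 and 9.3 RPKM in spinal cord and 0.4 and 0.3 RPKM in forebrain, and Trpv1 at 3.4 and 1.6 RPKM in spinal cord and 0 in forebrain. Prph also marks motor neurons, and the part of ganglion cells in the 3 channel values was not tested. Scn11a, a nociceptor channel of the same gene cluster, was at 0.1 RPKM in both spinal cord libraries and 0.4 RPKM in both forebrain libraries, below the level tested.

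**Figure D3:**
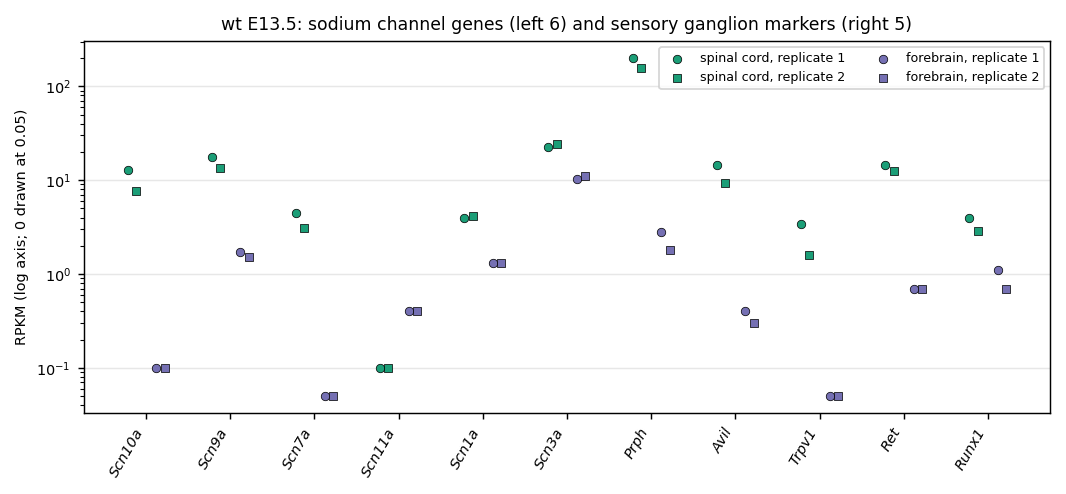
RPKM (log axis, values of 0 drawn at 0.05) of 6 sodium channel genes and 5 sensory ganglion markers in each wt E13.5 library; circles are replicate 1 and squares replicate 2, spinal cord left of forebrain. Scn10a, Scn9a and Scn7a stand far higher in spinal cord, as do Prph, Avil and Trpv1, with spinal cord replicate 1 above replicate 2 for these 6 genes, while Scn11a is lower in spinal cord.

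The sodium channels of central neurons were higher too, by smaller steps. Scn3a was at 22.6 and 24.4 RPKM in spinal cord, against 10.3 and 11.2 RPKM in forebrain (log2 1.06 ± 0.15). Scn1a was at 4.0 and 4.2 RPKM in spinal cord and at 1.3 RPKM in both forebrain libraries (log2 1.15 ± 0.11). Scn8a, the channel of mature axon initial segments, was higher by 0.57 ± 0.16. The alpha subunits Scn1a, Scn3a and Scn9a are related in sequence, so some short reads may be shared among them. The beta subunit Scn3b was at 45.6 and 41.6 RPKM in spinal cord, against 18.4 and 14.9 RPKM in forebrain (log2 1.34 ± 0.12). Scn3a made up 31.3% and 38.2% of the summed alpha level in spinal cord and 47.7% and 50.2% in forebrain.

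All 3 calcium channel pores of the Cav2 family, which serve transmitter release, were higher. Cacna1b was at 26.7 and 25.9 RPKM in spinal cord, against 8.8 and 7.4 RPKM in forebrain (log2 1.59 ± 0.16 SE, limma adjusted p = 0.000262). Cacna1a was at 14.7 and 13.6 RPKM in spinal cord, against 5.0 and 5.2 RPKM in forebrain (log2 1.31 ± 0.10), and Cacna1e at 7.6 and 6.2 RPKM in spinal cord, against 2.3 and 2.1 RPKM in forebrain (log2 1.30 ± 0.22). Cacna1b made up 54.5% and 56.7% of their sum in spinal cord and 54.7% and 50.3% in forebrain, which overlapped, and Cacna1a 30.0% and 29.8% in spinal cord and 31.1% and 35.4% in forebrain, which did not. The L-type pore Cacna1d was at 5.1 RPKM in both spinal cord libraries, against 1.9 and 1.6 RPKM in forebrain (log2 1.15 ± 0.14). Of the T-type pores, Cacna1h was at 35.6 and 34.1 RPKM in spinal cord and 19.3 and 20.3 RPKM in forebrain (log2 0.79 ± 0.10), while Cacna1i was not called (log2 0.03, limma adjusted p = 0.874).

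All 3 tested alpha2delta genes were higher in spinal cord. Cacna2d3 was at 15.7 and 17.7 RPKM in spinal cord, against 5.9 and 5.4 RPKM in forebrain (log2 1.41 ± 0.082 SE, limma adjusted p = 2.35e-05), and Cacna2d2 at 40.8 and 39.6 RPKM in spinal cord, against 16.4 and 16.3 RPKM in forebrain (log2 1.25 ± 0.13). Of the beta subunits Cacnb3, at 98.9 and 89.5 RPKM in spinal cord and 75.3 and 71.7 RPKM in forebrain, was higher by 0.35 ± 0.076, and Cacnb2 and Cacnb4 were not called. Of the TARP genes, Cacng2 was at 12.6 and 13.3 RPKM in spinal cord, against 4.8 and 4.0 RPKM in forebrain (log2 1.37 ± 0.14). Cacng3 (1.27 ± 0.19) and Cacng5 (1.20 ± 0.19) were higher by similar amounts from lower levels, and Cacng4 by 0.60 ± 0.080, at 103.6 and 111.1 RPKM in spinal cord and 72.3 and 68.6 RPKM in forebrain. Cacng7 and Cacng8, neighbours on chromosome 7, were not called (log2 -0.10 and -0.07, limma adjusted p = 0.169 and 0.601).

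Kcna3 went against the other Kv1 genes. This channel, best known from lymphocytes and microglia and also found in axons, was at 2.0 and 1.7 RPKM in spinal cord, against 7.5 and 7.2 RPKM in forebrain (log2 -1.55 ± 0.19 SE, limma adjusted p = 0.000682). Its neighbour Kcna2, which starts 63 kb beyond the end of Kcna3 on chromosome 3, was at 2.8 and 2.5 RPKM in spinal cord, against 0.8 and 0.6 RPKM in forebrain (log2 1.10 ± 0.18). Kcna6 was at 11.9 and 9.3 RPKM in spinal cord, against 3.2 and 2.8 RPKM in forebrain (log2 1.53 ± 0.15). Kcna6 was thus the largest Kv1 gene in spinal cord, with 55.6% and 53.4% of the family's summed level, against 23.2% and 22.2% in forebrain, where Kcna3 held 54.3% and 57.1%, against 9.35% and 9.77% in spinal cord. Of 7 markers of macrophages and microglia 4 were higher in spinal cord and none was lower, beside 21.8% and 23.9% of all tested genes. Their summed level was 38.7 and 32.1 RPKM in spinal cord and 27.2 and 22.6 RPKM in forebrain, and their part in the Kcna3 difference was not tested. The promoters of Kcna3 and Scn10a, the members with the largest differences in each direction, are shown as above, with every CG in capitals (chr3:107035912-107036211, plus strand, and chr9:119718983-119719282, minus strand, both in RefSeq GRCm38.p6).
Kcna3: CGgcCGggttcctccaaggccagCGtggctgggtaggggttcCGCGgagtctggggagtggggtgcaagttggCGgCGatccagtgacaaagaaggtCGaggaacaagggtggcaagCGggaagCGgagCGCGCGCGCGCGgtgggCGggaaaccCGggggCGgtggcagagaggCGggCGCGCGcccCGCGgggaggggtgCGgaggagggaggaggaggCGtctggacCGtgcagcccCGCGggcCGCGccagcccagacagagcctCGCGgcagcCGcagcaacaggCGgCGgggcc
Scn10a: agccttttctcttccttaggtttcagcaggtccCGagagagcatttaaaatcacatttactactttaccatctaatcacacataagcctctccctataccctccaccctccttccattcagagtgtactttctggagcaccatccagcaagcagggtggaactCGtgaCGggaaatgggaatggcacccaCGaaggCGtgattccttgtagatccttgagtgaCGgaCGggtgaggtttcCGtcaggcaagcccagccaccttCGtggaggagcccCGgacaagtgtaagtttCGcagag
The Kcna3 window holds 37 CG, a number reached by 5.58% of mouse promoters, and the Scn10a window holds 11 CG, reached by 41.4%. In GENCODE M21 Scn10a begins at 119719322, upstream of its window.

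The remaining potassium channel families were higher in spinal cord or not called. Of the Kv3 family, Kcnc1, Kcnc2 and Kcnc4 were higher, with Kcnc2 at 3.1 RPKM in both spinal cord libraries, against 0.9 and 0.7 RPKM in forebrain (log2 1.19 ± 0.15). Kcnc1 was at 9.8 and 9.5 RPKM in spinal cord, against 5.3 and 4.1 RPKM in forebrain (log2 0.91 ± 0.17). Kcnc4 was low in both, at 1.5 and 1.2 RPKM in spinal cord and 0.6 and 0.3 RPKM in forebrain. In the Kv4 family Kcnd1, at 3.9 and 3.1 RPKM in spinal cord and 1.2 RPKM in both forebrain libraries, was higher by 1.03 ± 0.13 and Kcnd2 by 0.97 ± 0.12. Kcnd3 was not called (log2 0.11, limma adjusted p = 0.658).

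**Figure D4:**
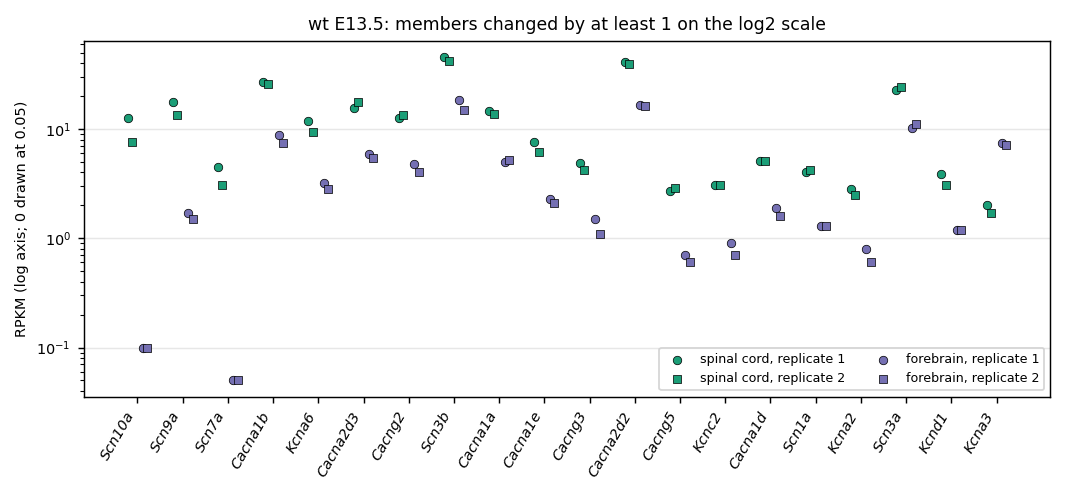
RPKM (log axis, values of 0 drawn at 0.05) in each wt E13.5 library of 20 channel genes that differed by at least 1 on the log2 scale; circles are replicate 1 and squares replicate 2, spinal cord left of forebrain. Spinal cord lies above forebrain without overlap for 19 genes, and below it for Kcna3. The genes were picked by their change, so the lack of overlap follows largely from that choice. The tissues do not overlap for 76.3% of all tested genes.

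Markers of neurons and of dividing progenitors differed between the tissues too, beside 21.8% of all tested genes higher and 23.9% lower. All 15 general neuronal genes were higher in spinal cord (median 1.07), with the neurofilament gene Nefl at 539.4 and 452.7 RPKM in spinal cord and 27.1 and 24.2 RPKM in forebrain, and their summed level was 4580.9 and 4262.2 RPKM in spinal cord and 2172.2 and 1918.7 RPKM in forebrain. All 6 motor neuron genes were higher, of which 1 would not have passed the filter without the spinal cord libraries. Of 8 progenitor genes 7 were lower. Of 8 glial genes 6 were higher and 1 lower, and of 7 mesenchyme genes 4 were higher and 1 lower. Of 10 cortical glutamatergic genes 9 were lower, and of 8 GABAergic genes 6 were lower and 1 higher. Of 11 vessel wall genes 2 were higher, and of 7 red blood cell genes 6 were lower. The part of neuron content and of other cell types in the channel differences was not tested. The channel partners were mostly higher as well. Of 13 potassium channel partners 11 were higher and 2 lower, of 15 sodium channel partners 12 were higher and 1 lower, and of 16 calcium channel partners 10 were higher and 1 lower. Stac2, an adaptor of L-type channels, was higher by 2.28 ± 0.094, Cntnap1 by 1.96 ± 0.17, Kcnab1, a beta subunit of Kv1 channels, by 1.87 ± 0.15 and the Kv4 partner Dpp10 by 1.83 ± 0.16. Kcne2, a potassium channel subunit also made by the choroid plexus, was lower, at 0.2 and 0 RPKM in spinal cord and 5.4 and 5.8 RPKM in forebrain. Of the 7 silent Kv subunits 1 was higher and 2 were lower, with Kcng1 lower (log2 -2.04 ± 0.13). Of 41 other potassium and HCN channel genes 17 were higher and 7 lower.

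The comparisons share no library, and many members were called in both. The spread of each gene was estimated from all 8 libraries, however. Its SE is therefore the same in both comparisons, and the calls are not independent. Of the members higher in EED-cKO forebrain, 19 (79.2%) were also higher in spinal cord, which is 48.7% of the members higher in spinal cord, and no member was called in opposite directions. Of all 52 tested members, 75.0% were higher in spinal cord. The 19 included Kcnc1, Kcnc2, Kcnc4, Cacna1a, Cacna1b, Cacna1d, Cacna1g, Cacna2d1, Cacna2d2, Cacng2, Scn1a, Scn3a and Scn9a. Cacna1i, Cacnb2, Kcna5 and Kcnq1 rose in EED-cKO and were not called between the tissues. The sodium channel genes Scn10a and Scn7a, which had 2 of the 3 largest differences between the tissues, were at 0.2 RPKM or less in every E15.5 library. Kcna3, lower in spinal cord, was at 8.0 and 7.3 RPKM in EED-cKO and 8.5 and 5.1 RPKM in wt E15.5 forebrain (limma adjusted p = 0.473). Cacng7 and Kcnq5, the members that fell in EED-cKO, were not called between the tissues.

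**Figure D5:**
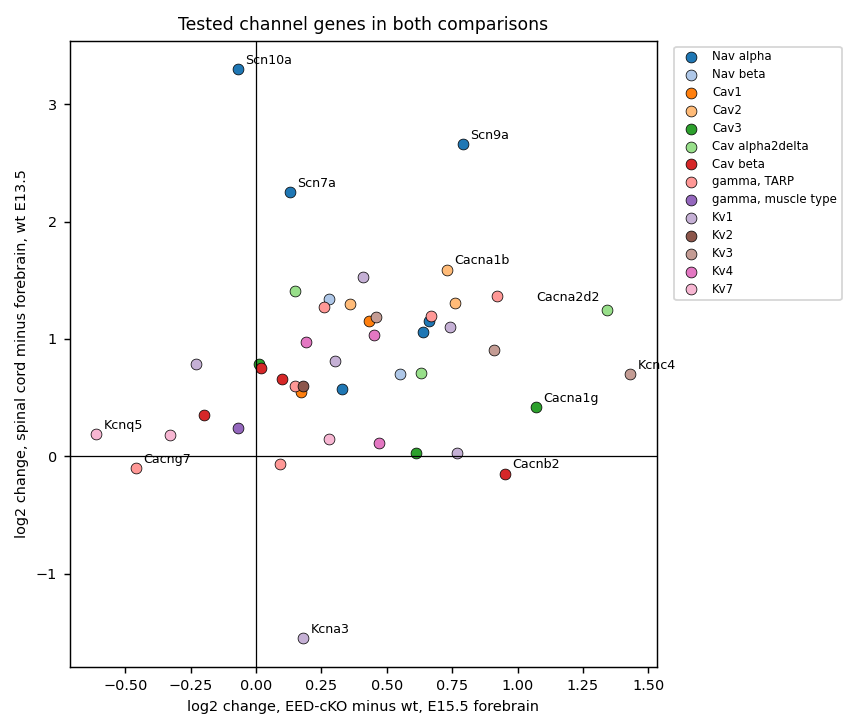
Change of 46 tested channel genes in EED-cKO against wt E15.5 forebrain (horizontal axis) and in wt E13.5 spinal cord against forebrain (vertical axis), both on the log2(RPKM + 1) scale; each point is a gene and colours mark the family. Scn10a, Scn9a and Scn7a lie highest, Kcna3 lowest at -1.55, Kcnc4 farthest right at 1.43 and Kcnq5 farthest left at -0.61.

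Members that lie side by side in the genome were called alike in some cases and not in others. Positions were taken by symbol from GENCODE M21 (GRCm38). On chromosome 2, Scn1a (66270778 to 66440840), Scn9a (66480080 to 66634962) and Scn7a (66673425 to 66784914) follow each other with gaps of 39 and 38 kb. All 3 were higher in spinal cord, while Scn1a and Scn9a, but not Scn7a, rose in EED-cKO. On chromosome 6, Kcna5 (126532551 to 126535412) rose in EED-cKO, and Kcna1 (126640397 to 126646384) and Kcna6 (126708329 to 126740674) were not called there, while both were higher in spinal cord and Kcna5 was not called between the tissues. On chromosome 7, Cacng7 (3332955 to 3368221) fell in EED-cKO and Cacng8, 22 kb on, was not called (log2 0.09, limma adjusted p = 0.503). Exons of 16 members overlap a gene on the other strand, among them Cacna2d2, Scn9a, Cacna1a, Cacng2 and Kcnq5, and unstranded reads cannot be assigned between them.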

How the data were processed

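Per the labels, total RNA was sequenced as unstranded single-end reads on a HiSeq2500. The authors deposited 1 table of RPKM values for all 8 libraries. Per the submitters' processing notes, mm9 and GRCm38 were used; the aligner and counter are not given in the sources used here. The E15.5 values lie in alphabetical row order, and matching them to names sorted alphabetically (case and hyphens ignored) took the correlation of wt forebrain at both ages from r = 0.760 to 0.948 across genes. Values around all 61 members fitted best without any row shift. Of rows sharing a symbol (16 symbols) the one highest on average was used. Log2(RPKM + 1) of all 8 libraries was fitted with 4 group means using the two-sided moderated test of limma (version 3.58.1, R version 4.3.3, trended eBayes, 4 residual degrees of freedom). The method was tested on simulated data. Figures were drawn with matplotlib 3.10.9 under Python 3.11.15. The members, gene lists and tests were chosen with earlier results of these data known. Library values are given for members changed by at least 1, the most abundant of each family and those listed at 0 in a group. From the lists of channel partners, up to 4 called genes with the largest changes could be named. Library values of other members were added after their values were seen. Some members are counted but not reported here by name or drawn. Replicate numbers do not state pairs.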

Additional observations from a re-analysis of the deposited data

How the results depend on the processing

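For EED-cKO against wt E15.5 forebrain, 7987 genes were called in all, 5149 higher and 2838 lower. Median ratio scaling gave 4043 higher and 4240 lower, and quantile normalization gave 3540 higher and 4314 lower. Called genes numbered 4777 with only the 4 libraries compared, 4929 among genes that kept their row, and 4922 to 9606 without 1 library. Members that rose numbered 24, with 15 when only the 4 libraries were fitted and 13 to 34 without 1 library. Members that fell numbered 2, with 5 after quantile normalization (Kcna1 and Kcnq3 among those added), 4 after median ratio scaling (Cacnb3 among those added) and 2 to 4 without 1 library. Kcnq1 turned to -0.04 after quantile normalization and Scn1a to -0.07 under the deposited order. For spinal cord against forebrain, 7784 genes were called, 4792 among same-row genes and 5205 to 9320 without 1 library. Members higher in spinal cord numbered 34 to 39 without 1 library. Kcna3 was the single lower member, and there were 2 with no filter on low values, with only the 4 libraries and under the deposited order, 0 among same-row genes, where Kcna3 is left out, and 1 to 2 without 1 library. The cause of these differences was not tested.

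With the replicate number as a block, 25 members rose and 3 fell in EED-cKO, where 7608 of all tested genes were called in either direction. In spinal cord 40 members were higher and 1 lower, with 7466 of all tested genes called. Deviations of same-numbered libraries correlated at -0.12 and 0.21, so the numbers were not taken as pairs. The crossed pairing of EED-cKO numbers, added after seeing the data, gave 27 and 2, with 8013 of all tested genes called. These totals were not split by direction, so the member counts have no matching share beside them. Rounding to 0.1 RPKM and the unknown depth limit members below 1 RPKM, and replicates of wt E15.5 forebrain differed most, with a median SD of 0.117 on the log2 scale against 0.049 to 0.0578 elsewhere, so a shared spread may understate that of the EED-cKO comparison.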
